A study of Homo sapiens with 6 samples.

Results

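Interferon-stimulated genes are the genes that cells switch on when interferon reports a virus. This account follows 42 of them, chosen by name as interferon-stimulated effectors, RNA sensors, and STAT and IRF transcription factors. The genes and their groups were chosen with earlier results of these data known, so shares by group are a description only. All 42 were found among the 26475 genes of the deposited table. Expression was measured by RNA sequencing in HepG2, a human liver cancer cell line that keeps many hepatocyte functions. There were 3 libraries of HepG2 cells expressing TAF2, a component of the TFIID complex that recognises core promoters, and 3 libraries of HepG2 cells expressing eGFP, the enhanced green fluorescent protein. All cells were taken while growing exponentially, and the labels name no interferon treatment or infection. The sources used here do not give how TAF2 and eGFP were introduced, under which promoter, or whether each line was 1 clone or a mixed population. Nor do the labels state that the 3 libraries of each group are independent cultures. All p-values therefore reflect the spread among these libraries alone, which may be technical.

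Interferons bind receptors at the cell surface, and Janus kinases at those receptors then phosphorylate STAT proteins. STAT2 and IRF9 belong to the factor ISGF3, which binds the interferon-stimulated response element (ISRE) in the promoters of its target genes. Many of the same genes keep a basal level without added interferon, and their proteins sense viral RNA, block viral entry or translation, or modify other proteins with ISG15 or ADP-ribose.

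TAF2 itself stood at 50.1, 48.3 and 47.4 CPM (counts scaled by library size) in the 3 TAF2 libraries, against 35.8, 40.4 and 37.5 CPM in the 3 eGFP libraries. The groups did not overlap, and the log2 fold change (TAF2 over eGFP, as everywhere here) was 0.36 (SE 0.046, quasi-likelihood (QL) test of edgeR, adjusted p = 1.44e-08), a 1.28-fold rise. That call was lost when the test asked for more than a 1.2-fold change (adjusted p = 0.0518, edgeR). Total counts ranged from 22276308 to 28024004 per library. At an adjusted p of 0.05 the test called 5548 of 12902 tested genes (43.0%), 2662 higher (20.6%) and 2886 lower (22.4%), so a call by itself is common here. The called genes had a median absolute log2 fold change of 0.23. Hepatocyte markers were abundant, with a summed level of 42073 to 43904 CPM in TAF2 libraries and 51397 to 52773 CPM in eGFP libraries, and 9 of the 13 were called lower and 3 higher. Fewer cells of a type and less RNA per cell cannot be told apart in such bulk samples. Leukocyte markers summed to 37.2 to 39.6 CPM with TAF2 and 49.7 to 53.1 CPM with eGFP. CD68 alone held most of that list's sum, averaging 35.8 CPM with TAF2 and 47.2 CPM with eGFP. Of that list of 10, 4 were tested, CD68 and CD14 were called lower, and PTPRC, CD3E, NKG7 and TYROBP were at 0 in all 6 libraries. Stromal and endothelial markers summed to 66.8 to 71.4 CPM with TAF2 and 55.5 to 59.6 CPM with eGFP. COL1A1 and PDGFRB were higher among 3 tested of 10, and KDR and LUM were at 0. Most of the sum was ACTA2, not called (mean 47.3 CPM with TAF2 and 48.8 with eGFP), and PDGFRB (19.5 and 7.87). Whether these marker shifts play a part in the results that follow was not tested.

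Interferon-stimulated genes were called in both directions. The ADP-ribosyltransferases PARP9, PARP12 and PARP14 with the ubiquitin ligase DTX3L, the RNA sensors IFIH1 and DHX58, and the ISG15 conjugating enzyme UBE2L6 were lower with TAF2. The virus entry inhibitors IFITM1, IFITM2 and IFITM3 and the virus tether BST2 were higher. The dsRNA kinase EIF2AK2, the RNA editing enzyme ADAR and the ISGF3 subunits STAT2 and IRF9 were not called. Of the 42 genes, 34 passed the filter on low counts and 8 did not. The filter's level of 0.397 CPM was exceeded in all 6 libraries by 30 of the 34. IFIT1, CMPK2 and SAMD9 missed it in some TAF2 libraries and IFITM1 in some eGFP libraries. These 4 thus passed in part through the group in which they were higher. In the counts that follow, IFIT1 and CMPK2 are among the lower genes and IFITM1 among the higher, where they carry no weight. Among the 34, 21 were called (61.8%, against 43.0% of all tested genes), 15 lower (44.1%, against 22.4%) and 6 higher (17.6%, against 20.6%), while 13 were not called. Their median log2 fold change was -0.22, beside -0.0027 for all tested genes, and single values ran from -1.15 to 1.39. The 3 TAF2 libraries lay entirely below the 3 eGFP libraries in 18 genes (all tested genes 26.1%) and entirely above them in 6 (24.5%), and the groups overlapped in 10. The 21 called genes had a median absolute log2 fold change of 0.45, and in 6 the change exceeded 1.5-fold. The 42 genes together held 984 to 991 CPM in TAF2 libraries and 1001 to 1036 CPM in eGFP libraries.

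**Figure D1:**
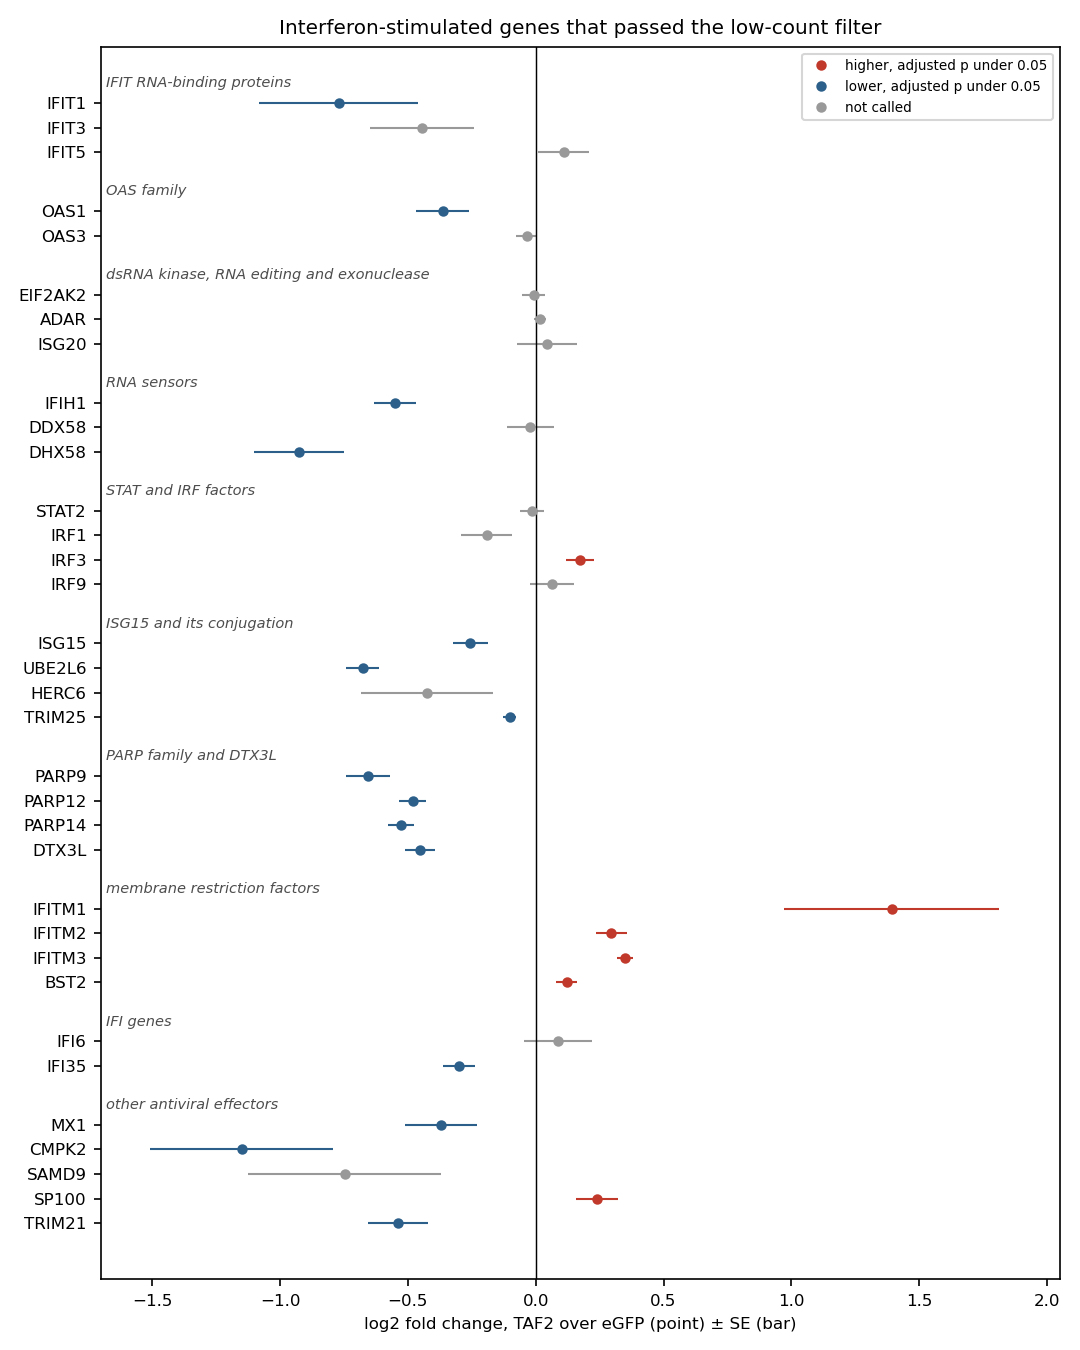
Log2 fold change of the 34 tested interferon-stimulated genes (x axis, TAF2 over eGFP; points, estimate; bars, SE), grouped by role down the page and coloured by the edgeR call at an adjusted p of 0.05. The 4 PARP and DTX3L genes lie left of 0, the 4 membrane restriction factors right of it, and the kinase, editing and exonuclease genes close to it.

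The PARP family and DTX3L were called lower in 4 of 4 (against 22.4% of all tested genes), and their median log2 fold change was -0.50. PARP9 and DTX3L encode partners of a complex that joins ADP-ribosylation to ubiquitin ligation. They lie head to head on chromosome 3 (PARP9 at 122527924 to 122564784 and DTX3L at 122564338 to 122575203, GRCh38.p14), and their annotated spans share 447 bases. PARP14, which also adds ADP-ribose, follows at 122680839 to 122730840, whereas PARP12, a zinc finger relative, is on chromosome 7 (140023749 to 140062951). Each has a match to the ISRE near an annotated start site. The search was for the letters GAAA, 2 bases of any kind and GAAA again, on either strand. The windows below run from 80 bases before to 10 after the start site in the RefSeq promoter table (GRCh38.p14). They are shown with that of the sensor IFIH1 because these 5 genes averaged at least 5 CPM, were lower without overlap between groups and hold an ISRE match in this window, which capitals mark. Other genes that were lower without overlap, such as UBE2L6, OAS1, IFI35 and TRIM25, have no match to these letters within 250 bases before to 50 after their start sites. Only a gap of 2 bases was searched for. OAS1, IFI35 and TRIM25 hold GAAA repeats with a shorter gap there, so they cannot be said to lack the element. The windows of PARP9 and DTX3L lie at chr3:122564291-122564380, minus strand, and chr3:122564258-122564347, plus strand. Those of PARP14 and PARP12 are chr3:122680759-122680848, plus strand, and chr7:140062942-140063031, minus strand. For IFIH1 the window is chr2:162318675-162318764, minus strand.
PARP9: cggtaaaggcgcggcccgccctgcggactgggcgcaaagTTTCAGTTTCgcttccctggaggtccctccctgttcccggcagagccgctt
DTX3L: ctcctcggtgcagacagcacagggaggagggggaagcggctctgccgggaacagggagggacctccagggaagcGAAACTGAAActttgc
PARP14: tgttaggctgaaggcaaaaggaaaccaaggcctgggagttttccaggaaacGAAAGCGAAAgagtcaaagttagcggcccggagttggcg
PARP12: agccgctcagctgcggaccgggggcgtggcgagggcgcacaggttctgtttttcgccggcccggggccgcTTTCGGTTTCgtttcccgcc
IFIH1: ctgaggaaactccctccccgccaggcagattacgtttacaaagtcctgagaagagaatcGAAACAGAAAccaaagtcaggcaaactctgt
PARP9 and DTX3L share a single ISRE match, at chr3:122564332-122564341, read as TTTCAGTTTC on PARP9's strand and GAAACTGAAA on DTX3L's. It lies 41 to 32 bases before this PARP9 start and from 6 bases before to base 4 of DTX3L. The window of PARP9's other annotated start held no match.

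PARP9 had 8.67, 7.89 and 9.85 CPM in TAF2 libraries, against 14.2, 13.1 and 14.4 CPM in eGFP libraries. The groups did not overlap, and the log2 fold change was -0.66 (SE 0.087, edgeR QL adjusted p = 3.25e-08). For DTX3L the TAF2 libraries held 22.5, 20.0 and 21.0 CPM and the eGFP libraries 27.4, 30.9 and 28.9 CPM. It was lower in all 3 TAF2 libraries than in any eGFP library (log2 fold change -0.45, SE 0.058, edgeR QL adjusted p = 1.77e-08). PARP14 stood at 24.7, 25.5 and 25.4 CPM with TAF2 and at 36.0, 34.9 and 38.0 CPM with eGFP. Its TAF2 libraries were within 1 CPM of each other and far below the eGFP ones (log2 fold change -0.53, SE 0.051, edgeR QL adjusted p = 1.62e-11). PARP12 had 24.8, 25.4 and 27.4 CPM in TAF2 libraries and 36.4, 34.4 and 37.5 CPM in eGFP libraries, again without overlap (log2 fold change -0.48, SE 0.052, edgeR QL adjusted p = 3.06e-10). All 4 stayed called in each of the 15 alternative analyses run.

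Within 2 Mb of PARP9 there were 24 other tested genes with a median log2 fold change of -0.03 and a range of -0.35 to 0.31, and 0 of the 24 lay as low as PARP9, DTX3L or PARP14. Around PARP12 the median of 22 other genes was 0.06, and 0 of them lay lower than PARP12.

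ISG15 and its conjugation genes were called lower in 3 of 4 (against 22.4% of all tested genes). The 3 TAF2 libraries lay below the 3 eGFP libraries in 4 of 4 (against 26.1%). ISG15, the ubiquitin-like protein that is attached to other proteins in the interferon response, had 13.9, 14.4 and 14.2 CPM in TAF2 libraries and 17.4, 16.6 and 16.8 CPM in eGFP libraries. Replicates lay close together and the groups apart (log2 fold change -0.26, SE 0.069, edgeR QL adjusted p = 0.00211). It lies on chromosome 1 (1013497 to 1014540), where 57 tested genes within 2 Mb had a median log2 fold change of -0.17. Of these 57, 23 lay lower than ISG15 and 34 higher. UBE2L6, the conjugating enzyme for ISG15, had 13.6, 13.8 and 14.1 CPM in TAF2 libraries and 23.2, 22.2 and 21.0 CPM in eGFP libraries. This was the largest shift of the group, with no overlap (log2 fold change -0.68, SE 0.065, edgeR QL adjusted p = 1.4e-11). UBE2L6 is on chromosome 11 (57551662 to 57567935), where 720 other tested genes had a median log2 fold change of -0.28. The 21 nearest, within 2 Mb, had a median of -0.37, so UBE2L6 lay 0.30 further down, and 4 of the 21 lay lower still. TRIM25, a ligase that activates the sensor encoded by DDX58, was higher in level and changed less, at 157 ± 3.19 CPM with TAF2 and 169 ± 2.53 CPM with eGFP (SD, n = 3 each; log2 fold change -0.10, edgeR QL adjusted p = 0.00135). HERC6, a ligase of the HERC family on chromosome 4, was near 1 CPM and not called (log2 fold change -0.43, SE 0.26, edgeR QL adjusted p = 0.187).

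Among the cytoplasmic RNA sensors, IFIH1 (MDA5), which detects long double-stranded RNA, had 10.4, 11.1 and 9.07 CPM in TAF2 libraries and 15.0, 16.0 and 13.8 CPM in eGFP libraries. The groups did not overlap (log2 fold change -0.55, SE 0.083, edgeR QL adjusted p = 5.82e-07). DHX58 (LGP2), a related helicase that lacks the signalling domain, had 1.42, 2.47 and 2.32 CPM with TAF2 and 4.24, 3.19 and 4.37 CPM with eGFP. It had the larger change at a lower level, also without overlap (log2 fold change -0.93, SE 0.175, edgeR QL adjusted p = 4.22e-05). DDX58 (RIG-I), the sensor of RNA with a triphosphate end, had 9.16, 9.38 and 8.64 CPM with TAF2 and 10.03, 8.41 and 9.02 CPM with eGFP. Its groups overlapped (log2 fold change -0.02, SE 0.093, edgeR QL adjusted p = 0.876). IFIH1 and DHX58 stayed called in all 15 alternatives.

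**Figure D2:**
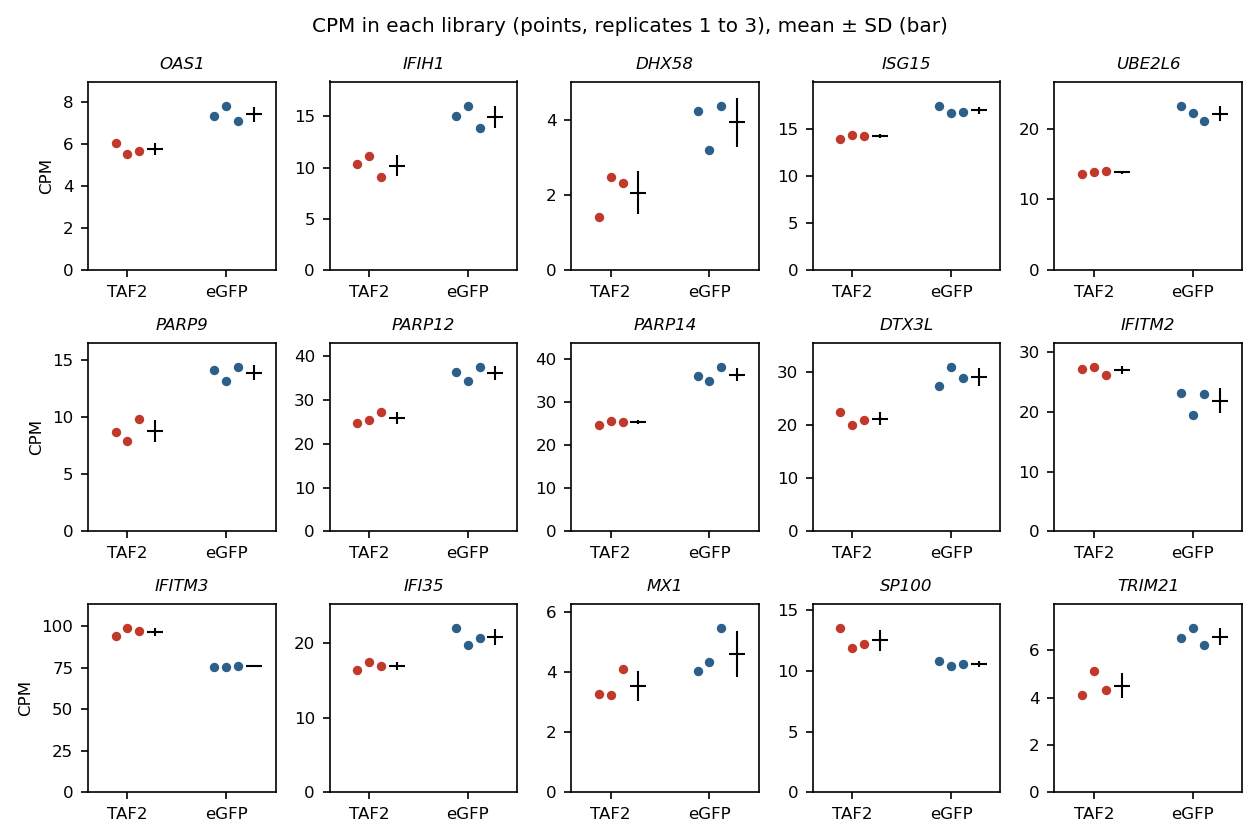
CPM (y axis from 0, own scale in each panel) of the 15 called interferon-stimulated genes that averaged at least 1 CPM and had an absolute log2 fold change of 0.2 or more, in TAF2 libraries (left) and eGFP libraries (right); points are libraries and bars the mean ± SD (n = 3). The 2 groups of points are apart in each panel except that of MX1, where the highest TAF2 library lies above the lowest eGFP library.

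The membrane restriction factors, IFITM1, IFITM2, IFITM3 and BST2, were called higher in 4 of 4 (against 20.6% of all tested genes). Their median log2 fold change was 0.32. IFITM1 exceeded the filter's level in 3 TAF2 libraries but only 1 eGFP library. It was thus tested in part through the group in which it was higher, and its place among the 4 carries no weight. The IFITM genes encode small membrane proteins that stop enveloped viruses from fusing with the cell, and lie side by side near the end of chromosome 11 (IFITM2 at 307816 to 309395, IFITM1 at 314040 to 315272 and IFITM3 at 319676 to 320860). IFITM3 had 94.1, 98.9 and 96.9 CPM in TAF2 libraries and 75.7, 75.7 and 76.3 CPM in eGFP libraries. The eGFP libraries were nearly alike and all TAF2 libraries lay above them (log2 fold change 0.35, SE 0.033, edgeR QL adjusted p = 6.63e-12), a 1.27-fold rise. IFITM2 had 27.2, 27.4 and 26.1 CPM with TAF2 and 23.1, 19.5 and 22.9 CPM with eGFP, without overlap (log2 fold change 0.30, SE 0.060, edgeR QL adjusted p = 8.05e-05). IFITM1 was scarce, with 13, 26 and 17 counts in TAF2 libraries and 4, 11 and 5 counts in eGFP libraries. These are 0.718 ± 0.265 CPM with TAF2 and 0.281 ± 0.187 CPM with eGFP (SD, n = 3 each), and the log2 fold change was 1.39 (SE 0.42, edgeR QL adjusted p = 0.00624). Its call was lost without TAF2 replicate 2 (adjusted p = 0.0806, edgeR) or eGFP replicate 1 (0.0643). The 3 genes are closely related and can share reads, and their deposited counts were in part not whole numbers, so how reads were divided among them is uncertain. Summed into a single row, which was decided after seeing the data, they held 122, 127 and 124 CPM in TAF2 libraries and 99.0, 95.6 and 99.4 CPM in eGFP libraries. That sum does not depend on the division among the 3 rows, and its log2 fold change was 0.34 (SE 0.030, edgeR QL adjusted p = 8.3e-13). IFITM3 also overlaps an antisense transcript, IFITM3-AS1, over 1185 bases, and reads of the pair cannot be told apart without strand.

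Of 53 other tested genes within 2 Mb of IFITM3, 51 had a log2 fold change below 0 and 2 above it, with a median of -0.34 and a highest value of 0.29. IFITM3 lay 0.69 above that median and IFITM2 lay 0.64 above it, and each of the 3 IFITM genes lay above all 53. IFITM1 and IFITM3 rose while carrying the same motif as some, but not all, of the genes that fell. Their windows (chr11:313960-314049, plus strand, and chr11:320851-320940, minus strand) are therefore shown, with each ISRE match in capitals.
IFITM1: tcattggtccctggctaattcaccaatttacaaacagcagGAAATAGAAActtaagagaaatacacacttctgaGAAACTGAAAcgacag
IFITM3: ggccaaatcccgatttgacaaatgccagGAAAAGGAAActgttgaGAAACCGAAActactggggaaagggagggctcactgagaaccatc
BST2 (tetherin), which holds budding virus particles at the cell surface, had 50.2, 49.2 and 48.9 CPM with TAF2 and 44.9, 44.0 and 47.4 CPM with eGFP. The groups did not overlap, but the difference was small (log2 fold change 0.12, SE 0.042, edgeR QL adjusted p = 0.0183). It was not called without eGFP replicate 1 (edgeR QL adjusted p = 0.0574) or eGFP replicate 2 (0.0620).

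**Figure D3:**
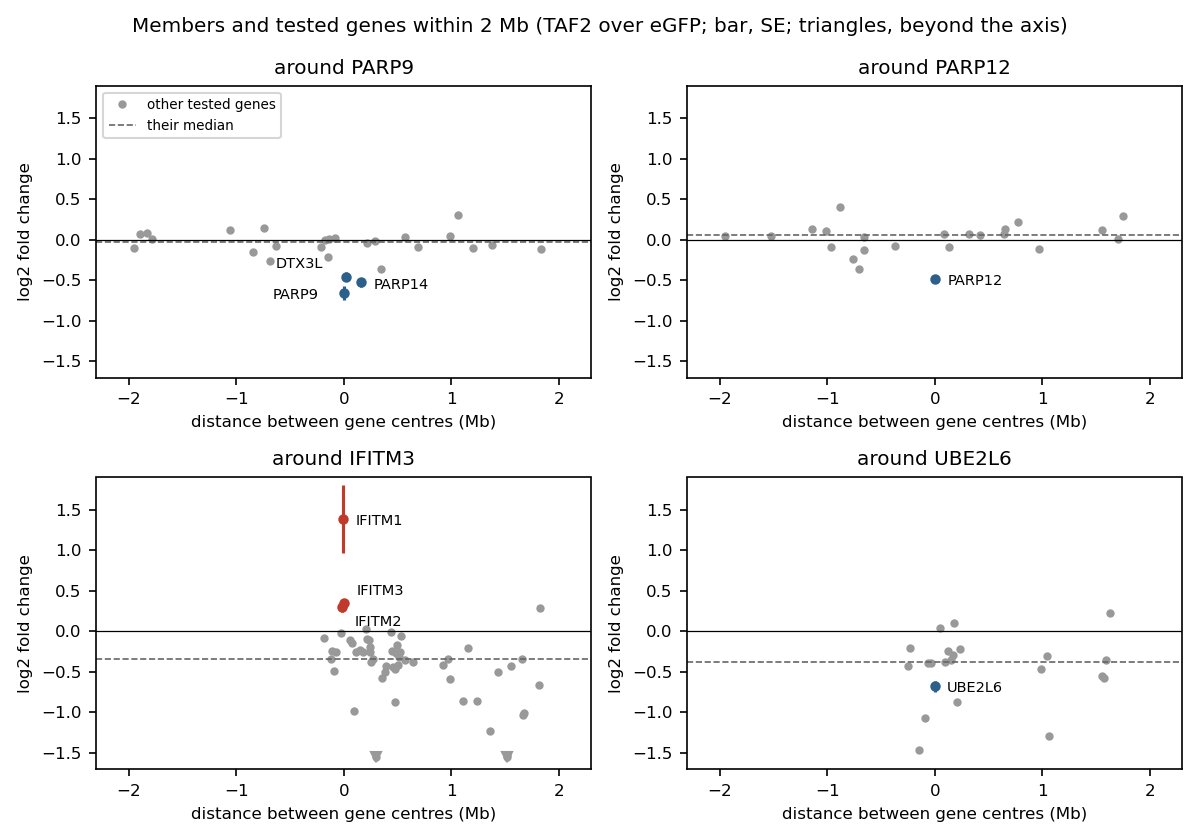
Log2 fold change (y axis, TAF2 over eGFP) of interferon-stimulated genes (coloured, named, bars are SE) and of the other tested genes within 2 Mb (grey; dashed line, their median), against the distance between gene centres in Mb (x axis) in 4 neighbourhoods. PARP9, DTX3L, PARP14 and PARP12 lie below neighbours with medians of -0.03 and 0.06, the IFITM genes above neighbours with a median of -0.34, and UBE2L6 within a lowered neighbourhood with a median of -0.37.

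Among the OAS enzymes 1 of 2 tested genes was called (against 43.0% of all tested genes). Of the dsRNA kinase, RNA editing and exonuclease genes, 0 of 3 were called (against the same 43.0%). The called gene was OAS1, which makes the 2-5A signal that activates RNase L. It had 6.04, 5.49 and 5.68 CPM in TAF2 libraries and 7.34, 7.78 and 7.06 CPM in eGFP libraries. The groups did not overlap (log2 fold change -0.36, SE 0.105, edgeR QL adjusted p = 0.00423), whereas its neighbours within 2 Mb had a median of 0.06 over 25 genes. OAS3, a larger enzyme of the family at a higher level, had 50.4 ± 1.07 CPM with TAF2 and 51.6 ± 0.835 CPM with eGFP (SD, n = 3 each; SE 0.040 around a log2 fold change of -0.04, edgeR QL adjusted p = 0.51). EIF2AK2 (PKR), which shuts off translation on binding double-stranded RNA, had 43.1, 39.7 and 39.5 CPM with TAF2 and 40.6, 41.9 and 40.5 CPM with eGFP. Its libraries were mixed between the groups (log2 fold change -0.0087, SE 0.046, edgeR QL adjusted p = 0.901). ADAR, which edits adenosine in double-stranded RNA, was at 263 ± 6.38 CPM with TAF2 and 260 ± 7.48 CPM with eGFP (SD, n = 3 each; SE 0.025 around a log2 fold change of 0.02, edgeR QL adjusted p = 0.627), and the exonuclease ISG20 was not called either (log2 fold change 0.04, SE 0.12, edgeR QL adjusted p = 0.801). OAS3 and EIF2AK2 carry a match to the ISRE, as some but not all of the called genes do. Their windows (chr12:112938394-112938483, plus strand, and chr2:37156971-37157060, minus strand) are therefore shown, with the match in capitals.
OAS3: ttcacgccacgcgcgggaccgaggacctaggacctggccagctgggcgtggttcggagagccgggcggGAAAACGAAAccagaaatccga
EIF2AK2: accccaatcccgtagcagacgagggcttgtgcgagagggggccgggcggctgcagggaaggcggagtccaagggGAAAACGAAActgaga

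The IFIT proteins bind viral RNA that lacks the host's cap marks. IFIT1 had 19, 10 and 16 counts in TAF2 libraries and 21, 28 and 24 counts in eGFP libraries. In CPM the groups did not overlap, and it was called lower (log2 fold change -0.77, SE 0.31, edgeR QL adjusted p = 0.0425). The call was lost without TAF2 replicate 2 (edgeR QL adjusted p = 0.198), TAF2 replicate 3 (0.102), eGFP replicate 2 (0.205) or eGFP replicate 3 (0.0805). IFIT3 had 1.58, 1.61 and 1.36 CPM with TAF2 and 2.25, 2.29 and 1.64 CPM with eGFP. Its TAF2 libraries lay below the eGFP ones without a call (log2 fold change -0.45, SE 0.20, edgeR QL adjusted p = 0.0731), which was gained when eGFP replicate 3 was left out (0.0332). IFIT5 was 8.03, 7.42 and 7.25 CPM with TAF2 and 7.01, 7.06 and 6.94 CPM with eGFP, not called (log2 fold change 0.11, SE 0.099, edgeR QL adjusted p = 0.398). IFIT1, IFIT2, IFIT3 and IFIT5 all lie within or across the annotated span of LIPA, a gene with a log2 fold change of -0.21 (edgeR QL adjusted p = 3.62e-05), and reads of overlapping genes cannot be told apart without strand. PARP9, DDX58, HERC6 and SP100 likewise overlap annotated lncRNAs.

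Of the STAT and IRF factors that drive these genes, 4 were tested. Of these, 1 was called higher (against 20.6% of all tested genes) and 0 lower (against 22.4%). STAT2 was at 35.8, 36.5 and 37.6 CPM with TAF2 and 37.8, 35.0 and 38.1 CPM with eGFP (log2 fold change -0.01, SE 0.047, edgeR QL adjusted p = 0.835). IRF9, the DNA-binding subunit of ISGF3, had a log2 fold change of 0.06 (SE 0.086, edgeR QL adjusted p = 0.587), and IRF1, an early factor that binds the same element, one of -0.19 (SE 0.100, edgeR QL adjusted p = 0.121). IRF3, which is activated after RNA sensing, had 50.4, 56.5 and 52.0 CPM with TAF2 and 51.0, 43.3 and 46.1 CPM with eGFP. The highest TAF2 library was the highest of all, but 1 eGFP library lay above the lowest TAF2 library (log2 fold change 0.17, SE 0.054, edgeR QL adjusted p = 0.0138), and the call was lost without TAF2 replicate 2 (0.0617) or eGFP replicate 3 (0.0848). IRF3 overlaps BCL2L12 over 716 bases, and BCL2L12 was not called (log2 fold change 0.04, edgeR QL adjusted p = 0.53). IRF7, the factor that amplifies interferon production in immune cells, had between 0 and 1 count in each library.

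Of the remaining effectors, TRIM21, a cytosolic antibody receptor and ubiquitin ligase, had 4.09, 5.10 and 4.32 CPM with TAF2 and 6.53, 6.93 and 6.21 CPM with eGFP. The groups were well apart (log2 fold change -0.54, SE 0.118, edgeR QL adjusted p = 0.000215). TRIM21 is on chromosome 11 (4384897 to 4393702), where its 16 tested neighbours had a median of -0.20, and 0 of the 16 lay lower. IFI35, an interferon-induced leucine zipper protein, had 16.4, 17.4 and 16.9 CPM with TAF2 and 21.9, 19.8 and 20.6 CPM with eGFP, without overlap (log2 fold change -0.30, SE 0.064, edgeR QL adjusted p = 0.000156). MX1, a GTPase that traps viral nucleocapsids, had 3.28, 3.22 and 4.10 CPM with TAF2 and 4.02, 4.32 and 5.45 CPM with eGFP. The groups overlapped (log2 fold change -0.37, SE 0.142, edgeR QL adjusted p = 0.0310), and the call was lost without TAF2 replicate 1 (0.101), TAF2 replicate 2 (0.127) or eGFP replicate 3 (0.278). CMPK2, a mitochondrial nucleotide kinase, had 10, 15 and 6 counts with TAF2 and 30, 21 and 15 counts with eGFP. Its TAF2 libraries were the lower ones or level with the lowest eGFP library in counts, and in CPM the groups did not overlap (log2 fold change -1.15, SE 0.36, edgeR QL adjusted p = 0.00807). The call was lost without TAF2 replicate 3 (edgeR QL adjusted p = 0.0898) or eGFP replicate 1 (0.0790). SP100, a protein of nuclear bodies that silences viral genomes, was also higher, with 13.5, 11.9 and 12.2 CPM with TAF2 and 10.8, 10.3 and 10.5 CPM with eGFP (log2 fold change 0.24, SE 0.082, edgeR QL adjusted p = 0.0158). Its 16 neighbours on chromosome 2 (SP100 at 230416201 to 230545606) had a median of 0.27, and its call was lost without TAF2 replicate 1 (0.0918). SAMD9, which restricts poxviruses, was not called (log2 fold change -0.75, SE 0.38, edgeR QL adjusted p = 0.109), nor was IFI6, an interferon-induced inhibitor of apoptosis (0.09, SE 0.133, adjusted p = 0.634).

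Several genes that mark a strong interferon response were near or at 0 in both groups. IFI44 and IFI44L had 0 counts in all 6 libraries, which allows up to 0.107 to 0.135 CPM per library when a count of 0 is taken to allow 3 counts, a limit that covers counting error only. IFIT2 had 2, 2 and 1 counts in TAF2 libraries and 2, 2 and 0 in eGFP libraries. OAS2 had 1, 1 and 0 counts with TAF2 and 5, 1 and 1 with eGFP, and OASL had 0, 2 and 0 with TAF2 and 0, 3 and 3 with eGFP. For IFI27 the counts were 0, 1 and 1 with TAF2 and 1, 0 and 4 with eGFP, and RSAD2 (viperin) had a count in only 1 library, 2 counts in eGFP replicate 3. Differences in these 8 genes, IRF7 among them, were not detectable at this depth. Per kilobase of transcript, IFITM3 had the highest level of the 42 genes, at 120 CPM per kilobase with TAF2 and 93.9 with eGFP. In the order of the TAF2 libraries it was followed by BST2 (48.5 with TAF2 and 44.6 with eGFP), IFITM2 (40.8 with TAF2 and 33.1 with eGFP), ADAR (40.2 with TAF2 and 39.7 with eGFP), IRF3 (36.7 with TAF2 and 32.5 with eGFP), TRIM25 (27.4 with TAF2 and 29.4 with eGFP) and ISG15 (22.3 with TAF2 and 26.6 with eGFP). In eGFP libraries ADAR stood above IFITM2.

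**Figure D4:**
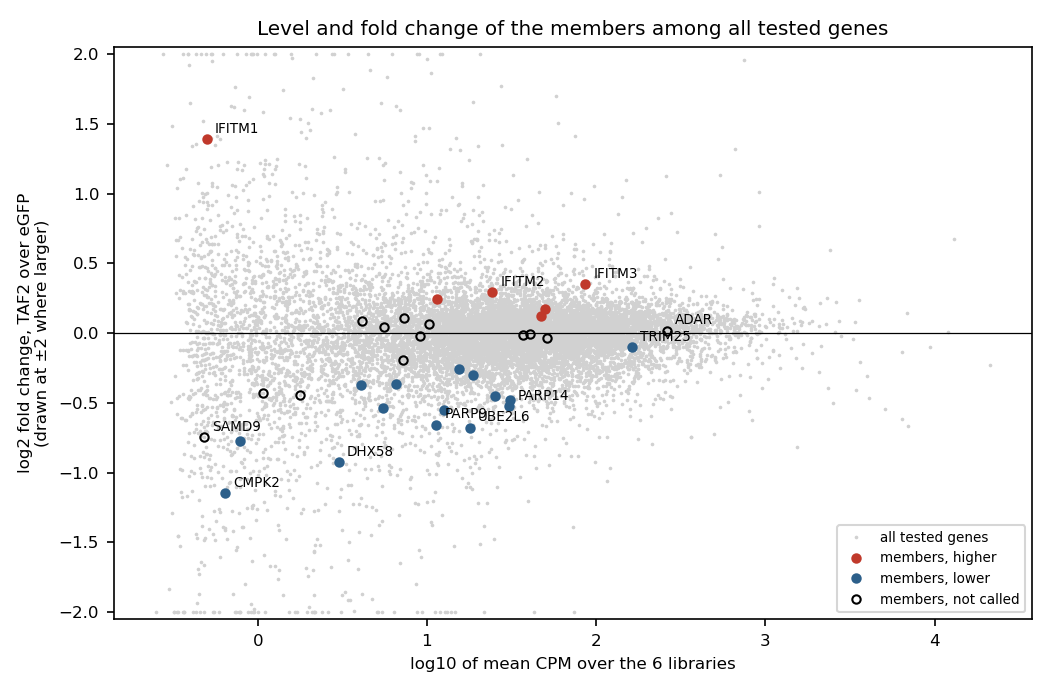
Log2 fold change (y axis, TAF2 over eGFP, drawn at ±2 where larger) against the log10 of the mean CPM over the 6 libraries (x axis) for all 12902 tested genes (grey) and the interferon-stimulated genes (coloured by call). The called members include scarce genes such as IFITM1 and CMPK2 and abundant ones such as IFITM3 and TRIM25.

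All 10 interferon ligand genes searched for had 0 counts in every library. Of 10 interferon receptor and Janus kinase genes, 10 were tested, 3 called higher and 2 lower (50% called, against 43.0% of all tested genes), which is near the background. IFNGR1, a chain of the receptor for interferon gamma, had 49.1 ± 1.51 CPM with TAF2 and 61.8 ± 2.56 CPM with eGFP (SD, n = 3 each; log2 fold change -0.33, edgeR QL adjusted p = 7.61e-09). IFNLR1, which receives interferon lambda, had 11.01 ± 0.454 CPM with TAF2 and 14.2 ± 0.283 CPM with eGFP (SD, n = 3 each; log2 fold change -0.37, edgeR QL adjusted p = 0.000133). The kinase TYK2 was slightly higher (log2 fold change 0.11, edgeR QL adjusted p = 0.0241), as was IFNGR2 (0.10, edgeR QL adjusted p = 0.0303). Feedback inhibitors of the pathway were called lower in 4 of 9 (44.4%, against 22.4% of all tested genes) and higher in 0 of 9 (against 20.6%). USP18, which removes ISG15 and blocks the receptor, had 18.2 ± 0.682 CPM with TAF2 and 22.5 ± 1.27 CPM with eGFP (SD, n = 3 each; log2 fold change -0.30, edgeR QL adjusted p = 8.55e-05). SOCS3 (-0.68), CISH (-0.56) and SOCS1 (-0.20) were also lower.

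Adaptors and kinases that carry the signal from sensors were called in 4 of 9 tested genes out of 11 (44.4%, against 43.0% of all tested genes), a share near the background. TANK (log2 fold change -0.22), TRAF6 (-0.35, on chromosome 11) and MYD88 (-0.15) were lower and MAVS, the mitochondrial adaptor of IFIH1 and DDX58, was slightly higher (0.07, edgeR QL adjusted p = 0.0177). A further 32 interferon-stimulated genes outside the 42 gave 23 tested, with 9 lower (39.1%, against 22.4% of all tested genes) and 4 higher (17.4%, against 20.6%) and a median log2 fold change of -0.15. The 4 with the smallest p were RNF213, NMI, HERC5 and GBP1. RNF213, a large ubiquitin ligase, was higher at 229 ± 5.47 CPM with TAF2 and 193 ± 2.73 CPM with eGFP (SD, n = 3 each; log2 fold change 0.24, edgeR QL adjusted p = 8.63e-11). NMI, which binds IFI35, was at 0.961 ± 0.155 CPM with TAF2 and 2.10 ± 0.049 CPM with eGFP (SD, n = 3 each; log2 fold change -1.13, edgeR QL adjusted p = 4.82e-05). HERC5, the main ISG15 ligase, averaged 0.292 CPM with TAF2 and 0.905 CPM with eGFP. It exceeded the filter's level in 0 of 3 TAF2 libraries and 3 of 3 eGFP libraries, so it was tested only through the group in which it was higher, and its place among the 9 lower genes carries no weight. The GTPase GBP1, which exceeded that level in 1 TAF2 library and 3 eGFP libraries, was lower at 0.349 CPM with TAF2 and 0.972 CPM with eGFP (log2 fold change -1.48). HERC5 lies on chromosome 4, where the median of 415 tested genes was -0.18.

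Of the 42 genes, 35 have at least 1 window of 250 bases before to 50 bases after a start site in the RefSeq table, and 23 of the 35 (65.7%) held GAAA, 2 bases of any kind and GAAA on either strand, against 1195 of all 27305 genes with a window (4.38%) and 379 of 10279 tested genes (3.69%). By call, the match was found in 9 of 14 lower genes, 3 of 4 higher genes, 7 of 13 genes not called and 4 of 4 genes not tested. The letters TTCNNNGAA, the gamma-activated site read alike on both strands, were in 9 of 35 (25.7%), against 9.38% of all genes. In IFITM1, BST2, IFI27 and MX1 a match to it overlapped one to the ISRE. A match is a description of letters and not a measured binding site. Nor does a missing match show that the element is absent, since other spacings were not searched for.

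Of the 21 called genes, 14 were called in every fit that left out 1 library and 9 in every alternative in which they were tested. These 9 were IFIH1, DHX58, UBE2L6, PARP9, PARP12, PARP14, DTX3L, IFITM3 and TRIM21. Asking for a change of more than 1.2-fold left 11 called, 9 lower and 2 higher. Of the 34 tested genes, 6 lie on chromosomes 4 or 11, most of whose genes were lower, with chromosome medians of -0.18 and -0.28.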

How the data were processed

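RNA sequencing libraries of HepG2 cells, 3 expressing TAF2 and 3 expressing eGFP, were prepared from total RNA with an Illumina TruSeq kit and sequenced on a HiSeq3000, per the labels' protocols. The deposited values are expected counts, unnormalized, in 1 table whose rows carry RefSeq accessions. The submitters' processing notes name RSEM and hg38. The sources used here give neither the aligner nor the strand setting. RSEM divides shared reads by estimated probability, so 4.18% to 4.45% of values per library were not whole.

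Expected counts were rounded, filtered with filterByExpr (12902 genes, a cutoff of 0.397 CPM, a minimum count of 10), scaled by TMM (0.9976 to 1.003) and tested with the quasi-likelihood test of edgeR 4.0.16 (R 4.3.3; glmQLFit robust, glmQLFTest) with the group alone, Benjamini-Hochberg adjustment over all tested genes and a threshold of 0.05. CPM used the scaled library sizes. The procedure was tested on simulated data. Those data had far fewer changed genes than were called here, evenly up and down, and the same dispersion for every gene. They therefore do not check scaling or error rates in a setting like the real data. The biological coefficient of variation was 2.75%, so small differences are called. Full values are given for called members averaging 1 CPM or more with an absolute log2 fold change of 0.2 or more; values per library of other members, chosen after their values were seen, were added. Some genes of the lists are not reported here. The members and lists were chosen with earlier results of these data known. Genes were placed on GRCh38.p14 by RefSeq accession or symbol. Levels per kilobase used the median length of GENCODE 29 transcripts matched to the RefSeq accessions. Alternatives were other scalings, filters and tests (DESeq2 1.42.0, limma 3.58.1), a replicate block, and each library left out.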

Additional observations from a re-analysis of the deposited data

How the results depend on the processing

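The 21 called interferon-stimulated genes kept their direction in each of the 15 alternatives in which they were tested. Asking for a change of more than 1.2-fold left 1243 of all genes (467 higher, 776 lower) and 11 of the members (2 higher, 9 lower), and TAF2, at 0.36, then had an adjusted p of 0.0518. Without the genes of chromosomes 4 and 11, chosen after seeing the data, 3 members were higher and 13 lower, since 6 tested members lie there. DESeq2 called 16 members (4 higher, 12 lower), losing IFIT1, BST2, MX1, CMPK2 and SP100. Upper-quartile scaling turned the balance over all genes to 3001 higher and 2675 lower. Leaving out 1 library at a time gave 17 to 19 called members (4 to 6 higher, 13 to 14 lower) and 4800 to 5288 of all genes. Same-numbered libraries did not visibly deviate together (correlations of -0.0789, -0.104 and -0.0984). Deviations from a mean of 3 libraries constrain one another, so this cannot decide whether the numbers pair the libraries. A replicate block called 5250 genes, 5 members higher and 14 lower, without IFIT1 (adjusted p = 0.0573) and IRF3 (0.0529).

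The sign turned in 5 members near 0, all of them not called. EIF2AK2 had 0.00501 with upper-quartile scaling and 0.00167 with no filter. Over the main fit and all alternatives, log2 fold changes ran from -0.044 to 0.015 for EIF2AK2, -0.0030 to 0.041 for ADAR and -0.070 to 0.055 for DDX58. For STAT2 the range was -0.044 to 0.0080, and for IFI6 it was -0.021 to 0.16. The cause was not tested. Counts of 30 or fewer per library limit IFIT1, IFITM1 and CMPK2.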
